A study of Rhodotorula toruloides with 36 samples.

Results

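Of the 8490 genes annotated in the catalogue deposited for Rhodotorula toruloides strain IFO0880, 67 have 20 or more exons. They are the mRNA features to which at least 20 exon lines belong in the annotation. No measured level decided which genes met that limit, but the limit was set with earlier results of these data known. All 67 had enough counts to be tested, as had 8247 of the 8423 genes with fewer exons. Messenger RNA was sequenced from cultures that crossed nitrogen, acetate and time in 12 groups of 3 libraries. The low-nitrogen medium with 2 g/L acetate and the low-nitrogen medium without acetate both held 0.1 g/L ammonium sulfate, with 0.75 g/L yeast extract according to the design text. The high-nitrogen medium with 2 g/L acetate and the high-nitrogen medium without acetate held more ammonium sulfate, 5 g/L by the treatment protocol but 10 g/L by the design text. No yeast extract is stated for high nitrogen, so nitrogen and yeast extract cannot be told apart. Each medium was sampled at 48, 64 and 88 h. All groups are labelled as IFO0880, and the sample titles begin with Rt88, a name that the labels do not explain. The cultures came from 3 colonies grown in glucose medium, each of which was divided over several flasks. The titles call the 3 libraries of a group biological replicates, but which colony or flask a number stands for is not stated, nor whether flasks were sampled more than once, so p-values measure the spread between libraries, which may be partly technical. The title names xylose, and the carbon source of the sampled cultures is not given in the labels.

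Introns are removed from a primary transcript by the spliceosome, and the exons are joined into the messenger RNA that is translated. Genes of basidiomycete fungi often hold many short introns, unlike those of budding yeast, most of which hold none. Each intron adds a splicing step, and introns are known in fungi and other eukaryotes to affect transcription, export and decay of the RNA that carries them. Rhodotorula toruloides itself is a red yeast known for storing lipid when nitrogen runs short, and acetate enters its metabolism as acetyl-CoA, the precursor of fatty acids. The deposited counts are per mRNA and do not separate spliced from unspliced reads, so splicing itself was not measured. The catalogue gives numbers and positions without names, and 0 of its identifiers matched the gene table at hand, which is of another strain. Genes are therefore described by number, structure and position on the scaffolds of assembly version 4 of strain IFO0880, and no role is given to any of them.

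The intron-rich genes were long genes built from short exons and short introns. They held 20 to 34 exons, with a median of 22, and 19 of the 67 had exactly 20. Only 4 had more than 25: mRNA_142 with 34 exons, mRNA_7210 with 32, and mRNA_3982 and mRNA_6791 with 27 each. The summed exon length had a median of 3816 bp, against 1423 bp in the other genes, and the span on the scaffold a median of 5161 bp, against 1774 bp. A typical exon was shorter in them, with a median over genes of 130.5 bp against 206 bp. A typical intron was of like size, 59 bp against 63 bp, and the gene medians ran only over 56 to 77 bp in the intron-rich genes. Introns took 25.9% of the span in the intron-rich genes and 17.6% in the others. Exon density was 5.845 exons per kb of exon, against 3.714. Genes with 15 to 19 exons were close to the intron-rich genes, at 134.5 bp per typical exon, 26.2% intron and 5.65 exons per kb. Those with 10 to 14 exons had 136.5 bp, 25.5% and 5.433 exons per kb, so these traits were not particular to the 67. The densest of the 67 was mRNA_5187 (scaffold 4, 103886 to 106875, minus strand), whose 20 exons total 1524 bp, at 13.1 exons per kb. By contrast mRNA_142 (scaffold 1, 343005 to 355699, plus strand) has 34 exons in 10389 bp, at 3.27 per kb.

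Length and exon number go together in this genome. Of the intron-rich genes 31 (46.3%) have over 4 kb of exon, 34 (50.7%) have 2 to 4 kb and 2 (2.99%) have less, against 3.92%, 23.1% and 73.0% of the other genes. Changes are therefore given below also within length classes. The intron-rich genes lay on 16 of the 21 scaffolds that carry genes, with 10 on scaffold 2, 8 on scaffold 5 and 7 on scaffold 1, and none were direct neighbours. The plus strand held 30 and the minus strand 37. A gene on the opposite strand overlaps 11 of them, and 1, mRNA_3974, overlaps a gene on its own strand. The strand setting of the counting is not stated, so reads of these 12 genes may include those of a neighbour.

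Library totals lay between 10173719 and 63311529 counts, and the 67 genes together took between 0.912% and 1.75% of them. The lowest count of any intron-rich gene in any library was 32, so none was at the limit of detection. No pair of replicates was alike to within counting error (chi-square over its degrees of freedom 8.236 to 154.2). There were 4 libraries that stood apart within their groups: replicate 3 of high nitrogen with acetate at 48 h, replicate 1 of low nitrogen without acetate at 64 h, and replicate 2 of high nitrogen without acetate at 64 and at 88 h. They were kept, and values without them are given where they differ. Whole cultures were sequenced, in which fewer cells expressing a gene and less of its RNA per cell cannot be told apart.

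Per length, the intron-rich genes were expressed at a moderate level, below that of genes with fewer exons. Levels are given as CPM, counts scaled by TMM to a common library size, and between genes as RPKM, the CPM per kb of exon. The median over genes of the mean RPKM was 23.1, against 31.4 for the other genes. Single members ran between 4.51 and 1330 RPKM. Across all classes the median RPKM was 23.1 with 20 or more exons, 32.6 with 15 to 19, 38.0 with 10 to 14, 36.6 with 6 to 9, 28.1 with 2 to 5 and 8.19 with 1. The level was thus highest at intermediate exon numbers and lowest in genes with 1 exon. Within genes of over 4 kb the difference was not seen, with 23.1 RPKM for the intron-rich and 23.4 RPKM for the other genes. In the 2 to 4 kb class it was 23.8 against 29.4 RPKM. Of the 67 genes 49 stood above 13.97 RPKM, the lower quartile of all tested genes, 26 above their median of 31.28 RPKM, 11 above their upper quartile of 68.46 RPKM, and 2 above 164.7 RPKM, where their top decile starts. On the log2(RPKM + 0.1) scale the median of the intron-rich genes lay below that of the others in all 36 libraries, with differences between -0.821 and -0.0613.

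**Figure D1:**
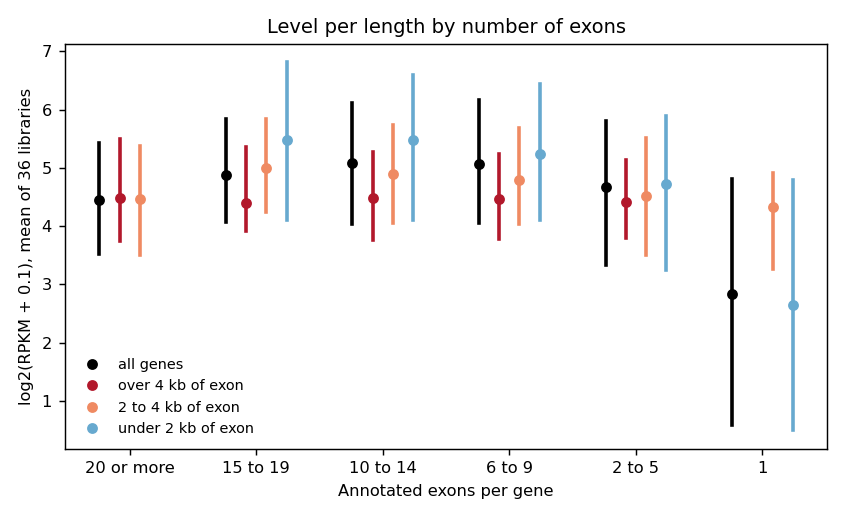
Level per length, as log2(RPKM + 0.1) averaged over 36 libraries, by annotated exons per gene, with points at class medians and bars over the middle 50% of genes. Among genes of over 4 kb of exon the medians of all classes lie together, at 22.7 to 23.8 RPKM.

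Per length, a single member stood far above the rest. The most abundant was mRNA_996 (scaffold 10, 160402 to 163875, minus strand, 20 exons in 2120 bp), with a mean of 1335 RPKM, rank 108 of 8314 tested genes. It alone took 5.49% to 32.3% of the counts of the 67 genes, depending on the library. Next came mRNA_905 (scaffold 1, 2161291 to 2166651, plus strand, 23 exons) at 178.6 RPKM, mRNA_6543 at 147.3, mRNA_5999 at 111.9 and mRNA_2433 at 108.0 RPKM, of which mRNA_5999 overlaps a gene on the opposite strand. At the low end mRNA_4904 had 4.505 RPKM. The 2 genes with most exons were also low, with 5.032 RPKM for mRNA_142 and 5.313 RPKM for mRNA_7210. The next most divided, mRNA_3982 and mRNA_6791, reached 21.54 and 40.04 RPKM.

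The 2 genes with most exons moved with medium and time in different ways. At 48 h in low nitrogen mRNA_142 had 36.8, 38.8 and 39.0 CPM with acetate, against 24.1, 26.2 and 26.1 CPM without it. High nitrogen gave it 41.2, 43.2 and 78.4 CPM with acetate at 48 h, against 118, 84.5 and 104 CPM without it. Acetate thus raised mRNA_142 in low nitrogen (log2 fold change 0.58 with SE 0.2, adjusted p = 0.0178) and lowered it in high nitrogen (log2 fold change -0.91 with SE 0.2, adjusted p = 0.000191), with no overlap of libraries in either medium. At 88 h acetate raised it in both media, by 0.92 log2 units in low and 0.89 in high nitrogen. By contrast mRNA_7210 (scaffold 7, 1132547 to 1139473, minus strand, 5108 bp of exon) had 24.5, 23.9 and 23.7 CPM with acetate at 88 h in low nitrogen, against 44.9, 36.6 and 45.3 CPM without it. It fell with acetate there (log2 fold change -0.81 with SE 0.14, adjusted p = 2.76e-05) and at 88 h in high nitrogen (log2 fold change -0.93 with SE 0.14, adjusted p = 1.02e-06). Among the pair with 27 exons each, mRNA_3982 rose by 0.84 and mRNA_6791 by 0.62 log2 units with acetate at 88 h in low nitrogen.

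In low nitrogen, acetate raised more of the intron-rich genes than it lowered, with the largest excess at 88 h. At 48 h 21 of the 67 were higher with acetate and 16 lower, against 25.1% and 26% of all tested genes, so that their shares of 31.3% and 23.9% were near the background. At 64 h 33 were higher (49.3%, against 23% of all genes) and 7 lower (10.4%, against 18.8%). At 88 h 37 were higher (55.2%, against 25.2%) and 5 lower (7.46%, against 22.3%). The median log2 fold change of the 67 was 0.0882, 0.244 and 0.352 at 48, 64 and 88 h, against -0.0102, -0.000226 and 0.00793 for the other genes. At all 3 times 15 of the 67 (22.4%) were higher with acetate, against 5.75% of all genes. With library totals alone in place of TMM the split at 64 h was 19 higher and 11 lower. Without replicate 1 of low nitrogen without acetate at 48 h, 13 were higher at 48 h and the median difference from other genes was 0.0462 in place of 0.0983. At 88 h 9 were lower when only the groups compared were fitted, and 8 without the libraries that stood apart.

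Counted per library, the shift was clear of the replicate spread at 64 and 88 h. The score used here is the median over the 67 genes of log2 CPM centred on each gene's mean, minus the same median over all other genes. At 64 h it was 0.291, 0.196 and 0.167 with acetate in low nitrogen, against -0.067, -0.0492 and -0.0805 without it. At 88 h the scores were -0.0522, -0.0189 and 0.0668 with acetate, against -0.353, -0.346 and -0.413 without it. At both times all 3 libraries with acetate lay above all 3 without it. At 48 h the groups overlapped, with 0.105, 0.0741 and 0.0617 with acetate, against -0.0368, -0.0195 and 0.0807 without it. The members are not replicates, and no p is given for the score.

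**Figure D2:**
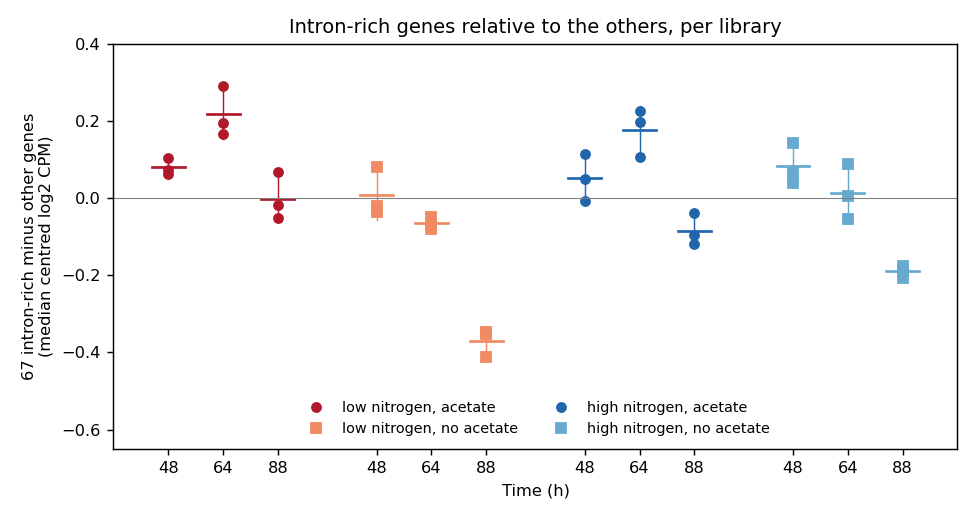
Score of the 67 intron-rich genes relative to all other genes in each of 36 libraries (median centred log2 CPM, members minus others), with points for libraries and lines for group mean and SD (n = 3). In low nitrogen at 88 h the libraries with acetate score -0.0522 to 0.0668 and those without it -0.413 to -0.346.

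At 64 h the rise with acetate in low nitrogen was larger in longer genes, and its median differed little between exon classes of one length. Among genes of over 4 kb of exon the median log2 fold change at 64 h was 0.462 with 20 or more exons, 0.520 with 15 to 19, 0.429 with 10 to 14, 0.492 with 6 to 9 and 0.512 with 2 to 5. Of the intron-rich genes in that length class 71.0% were higher, against 77.0% of the other genes, and 9.68% were lower, against 1.52%. In the 2 to 4 kb class the medians were 0.198 with 20 or more exons and 0.171 in all genes with fewer. At 88 h the exon classes of over 4 kb were further apart, with 0.566 for 20 or more exons and 0.558 for 15 to 19, against 0.332, 0.291 and 0.342 for 10 to 14, 6 to 9 and 2 to 5 exons. In the 2 to 4 kb class they were 0.258, 0.294, 0.153, 0.0899 and 0.114 in the same order. Genes just inside the limit, with 20 or 21 exons (n = 28), had a median of 0.236 at 64 h and 0.326 at 88 h, and those just outside it, with 18 or 19 (n = 59), 0.362 and 0.405. The 55 intron-rich genes without an overlapping neighbour had medians of 0.231 and 0.263. Whether length or exon number has a part in the change was not tested.

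**Figure D3:**
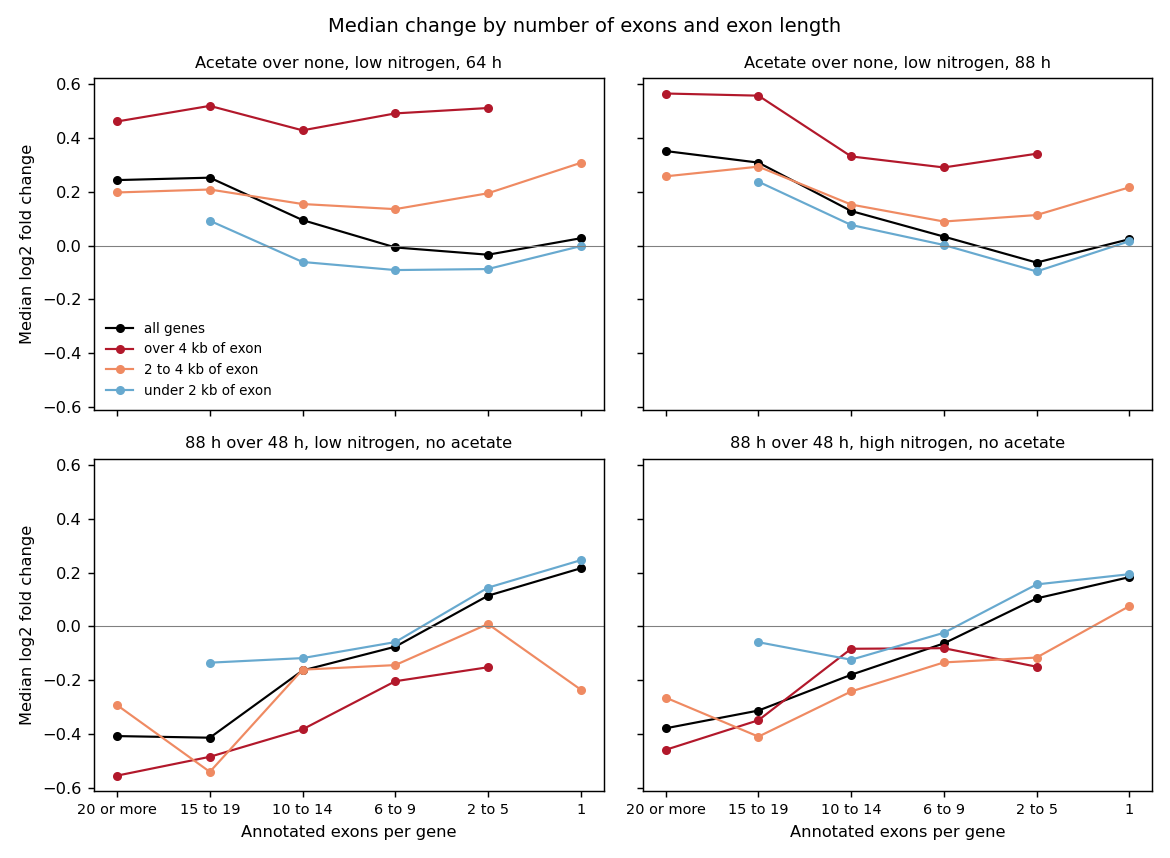
Median log2 fold change by annotated exons per gene, for all genes and by summed exon length, in 4 comparisons with acetate over none above and 88 over 48 h below. At 64 h the line for genes of over 4 kb stays between 0.429 and 0.520, and in the lower panels genes of over 4 kb are lowest with 20 or more exons, at -0.555 and -0.459.

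Acetate raised mRNA_8217 (scaffold 9, 689351 to 696574, minus strand, 20 exons in 5601 bp) at every time in low nitrogen. At 64 h it had 96.8, 69.4 and 58.6 CPM with acetate, against 14.0, 12.1 and 11.8 CPM without it (log2 fold change 2.56 with SE 0.18, adjusted p = 3.39e-12). The groups were far apart, and they were so at 48 and 88 h too, with log2 fold changes of 1.33 and 1.71. A later rise was that of mRNA_1343 (scaffold 11, 40643 to 45176, minus strand, 20 exons). At 88 h it had 60.3, 52.8 and 71.5 CPM with acetate, against 11.4, 12.7 and 10.4 CPM without it (log2 fold change 2.41 with SE 0.21, adjusted p = 2.24e-10). At 48 h it had 69.7, 70.8 and 59.6 CPM with acetate, against 75.1, 82.9 and 86.0 CPM without it, where the groups did not overlap but the difference did not pass the test (log2 fold change -0.29 with SE 0.2, adjusted p = 0.224). A gene on the opposite strand overlaps mRNA_1343. At 48 h the largest rise was that of mRNA_5187, with 17.4, 17.8 and 26.2 CPM with acetate, against 6.06, 6.48 and 5.91 CPM without it (log2 fold change 1.74 with SE 0.29, adjusted p = 1.14e-05). At 88 h it fell instead, with 104, 87.5 and 78.4 CPM with acetate, against 156, 137 and 204 CPM without it (log2 fold change -0.88 with SE 0.26, adjusted p = 0.00584). That fall was -0.699 with adjusted p = 0.0514 without replicate 3 of low nitrogen without acetate.

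Falls with acetate in low nitrogen were fewer and mostly early. The abundant mRNA_996 had 657, 875 and 665 CPM with acetate at 48 h, against 2088, 2286 and 2125 CPM without it (log2 fold change -1.56 with SE 0.15, adjusted p = 9.43e-10). At 64 h it was on the other side, with 5150, 5565 and 5204 CPM with acetate, against 4422, 3826 and 3660 CPM without it (log2 fold change 0.42 with SE 0.15, adjusted p = 0.0227). The groups did not overlap at either time. Another early fall was that of mRNA_3525 (scaffold 18, 307558 to 311482, minus strand, 22 exons), with 10.4, 10.3 and 11.7 CPM with acetate at 48 h, against 36.7, 34.5 and 33.0 CPM without it (log2 fold change -1.69 with SE 0.14, adjusted p = 3.32e-11). Its fall was smaller at each later time, -0.93 at 64 h and -0.42 at 88 h. At 64 h mRNA_4904 and mRNA_1659 fell most, by log2 fold changes of -1.21 and -1.04.

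In high nitrogen more intron-rich genes were lower than higher with acetate at 48 h, and more were higher at 88 h. At 48 h 16 were higher with acetate and 27 lower (23.9% and 40.3%, against 34.3% and 34.6% of all genes). At 64 h 16 were higher and 20 lower (23.9% and 29.9%, against 30.4% and 36.5%), both below the background. At 88 h 34 were higher and 18 lower (50.7% and 26.9%, against 38.8% and 36.8%). Medians of the log2 fold change were -0.0986, -0.0492 and 0.251 at the 3 times, against -0.00906, -0.0739 and 0.0367 for the other genes. The split depended on the scaling: with library totals alone it was 13 higher and 35 lower for the 48 h cultures, 10 and 38 for 64 h, and 12 and 35 for 88 h. Totals alone also shift the median of all genes, by between -0.539 and 0.456 over the 19 comparisons, so counts by direction are to be read against that shift. At 64 h 13 were lower when only the groups compared were fitted. Length again went with the change, as among genes of over 4 kb the medians at 88 h were 0.317 for the intron-rich and 0.298 for the other genes, and at 48 h -0.301 and -0.236. In the 2 to 4 kb class the medians at 48 h were 0.0392 and -0.0959. Of the 11 genes with 25 or more exons, 0 were higher and 7 lower at 48 h.

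The largest rises with acetate in high nitrogen were those of mRNA_3991, mRNA_8217, mRNA_1343 and mRNA_1650. At 48 h mRNA_3991 (scaffold 2, 1089725 to 1094754, minus strand, 23 exons in 3471 bp) had 245, 181 and 222 CPM with acetate, against 45.6, 60.2 and 34.3 CPM without it (log2 fold change 2.21 with SE 0.16, adjusted p = 4.37e-13). It rose at all 3 times in both media and was the 1 intron-rich gene of 67 to do so, against 1.38% of all genes. Its smallest rise, at 64 h in high nitrogen, was still free of overlap, with 154, 155 and 159 CPM with acetate, against 117, 107 and 130.1 CPM without it (log2 fold change 0.41 with SE 0.15, adjusted p = 0.0201). At 64 h mRNA_8217 had 92.1, 74.8 and 80.9 CPM with acetate, against 16.6, 11.9 and 18.5 CPM without it (log2 fold change 2.39 with SE 0.18, adjusted p = 2.3e-12), and mRNA_1343 had a log2 fold change of 2.12. At 48 h mRNA_8217 was instead lower with acetate, at 86.0, 75.1 and 117 CPM, against 151, 123 and 151 CPM without it (log2 fold change -0.61 with SE 0.16, adjusted p = 0.00155). Of all 12 groups its mean was highest in high nitrogen without acetate at 48 h and lowest in the same medium at 88 h.

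Other members fell with acetate in high nitrogen at every time. These were 8 of 67 (11.9%, against 13.0% of all genes), among them mRNA_4770, mRNA_1659, mRNA_5302, mRNA_4063 and mRNA_2433. At 48 h mRNA_4770 (scaffold 3, 971526 to 977350, plus strand, 21 exons) had 353, 364 and 279 CPM with acetate, against 887, 835 and 995 CPM without it (log2 fold change -1.45 with SE 0.094, adjusted p = 4.47e-14). The second largest fall at that time was that of mRNA_3237, to 240.2, 223 and 350.2 CPM with acetate, against 764, 731 and 627 CPM without it (log2 fold change -1.38 with SE 0.15, adjusted p = 4.31e-09). In both media and at all times acetate lowered mRNA_5302 (scaffold 4, 397977 to 403896, minus strand, 20 exons), the 1 such member, against 0.902% of all genes. At 64 h in high nitrogen it had 30.4, 32.4 and 33.1 CPM with acetate, against 61.5, 66.9 and 69.5 CPM without it (log2 fold change -1.05 with SE 0.1, adjusted p = 7.6e-10). At 88 h mRNA_1659 (scaffold 11, 828516 to 833352, minus strand, 24 exons) fell to 17.5, 16.7 and 16.3 CPM, against 40.6, 60.2 and 34.8 CPM without acetate (log2 fold change -1.43 with SE 0.15, adjusted p = 7.64e-10). At that time mRNA_6260 fell to 76.8, 73.5 and 70.7 CPM, against 151, 239 and 188 CPM without acetate (log2 fold change -1.39 with SE 0.17, adjusted p = 3.02e-08).

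Acetate effects in low and high nitrogen were compared directly, as the effect in low minus that in high nitrogen. The difference passed the test upwards for 25 and downwards for 18 intron-rich genes at 48 h, against 28.3% and 28.4% of all genes. At 64 h the counts were 29 and 6 (43.3% and 8.96%, against 31.9% and 24.1% of all genes), and at 88 h 26 and 10 (38.8% and 14.9%, against 32.8% and 30.2%). With library totals alone they were 34 and 14 at 48 h, and 45 and 6 at 88 h. At 64 h the median difference of effects was 0.356, against 0.0997 in the other genes, but among genes of over 4 kb it was 0.310 for the intron-rich and 0.551 for the other genes. The downward share within that length class was 3.23% of the intron-rich genes and 5.15% of the others. At 88 h the median was 0.192, against 0.0384, and among genes of over 4 kb 0.185 against 0.00427. Genes with 15 to 19 exons had like medians at 88 h, 0.205 over all lengths and 0.209 among those of over 4 kb. The 88 h shift was thus not particular to the intron-rich genes. Over all lengths that exon class had medians of 0.242 at 48 h and 0.264 at 64 h, against 0.116 and 0.356 for the 67. At 48 h the distance between members and other genes was 0.109, and leaving out single libraries gave 0.0766 to 0.192. The 0.192 was without replicate 3 of the high-nitrogen cultures with acetate. The distance was 0.172 without replicate 3 of those without acetate, and 0.193 without the libraries that stood apart. The 55 intron-rich genes without an overlapping neighbour had a 48 h median of -0.02, against 0.116 for all 67. In the 2 to 4 kb class the 48 h medians were -0.0207 for the intron-rich and 0.168 for the other genes. Among genes of over 4 kb they were 0.294 and 0.251.

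Several members answered acetate in opposite directions in the 2 nitrogen media. The widest gap was that of mRNA_1650 (scaffold 11, 807250 to 811325, plus strand, 22 exons in 2368 bp, with an overlapping gene on the opposite strand) at 48 h. In low nitrogen it had 1.59, 1.64 and 1.37 CPM with acetate, against 4.62, 7.23 and 6.25 CPM without it. In high nitrogen it had 46.9, 35.5 and 25.7 CPM with acetate, against 6.27, 10.5 and 7.37 CPM without it. The acetate effect was thus -1.99 in low and 2.16 in high nitrogen, a difference of -4.15 (SE 0.34, adjusted p = 3.25e-11). At 48 h mRNA_3525 had 65.1, 53.6 and 45.6 CPM with acetate in high nitrogen, against 17.6, 21.5 and 16.6 CPM without it, opposite to its fall in low nitrogen (difference -3.25, SE 0.19, adjusted p = 4.41e-14). The reverse was seen in mRNA_5187 at 48 h, with 1.28, 2.02 and 4.93 CPM with acetate in high nitrogen, against 5.69, 6.04 and 8.87 CPM without it, and a rise in low nitrogen. At 88 h mRNA_6543 (scaffold 6, 1039510 to 1046576, minus strand, 22 exons in 5171 bp) had 504, 526 and 551 CPM with acetate in low nitrogen, against 332, 369 and 315 CPM without it. In high nitrogen it had 640.5, 606 and 601 CPM with acetate, against 2299, 824 and 1612 CPM without it, where the libraries without acetate were themselves far apart and replicate 2, one of those that stood apart, was the lowest. Its difference of effects was 2.00 (SE 0.29, adjusted p = 9.42e-07). At 64 h the largest upward differences were those of mRNA_4063 and mRNA_1723, 1.16 and 1.15 log2 units.

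Low nitrogen set against high nitrogen moved many intron-rich genes. More were lower than higher at all 3 times without acetate and at 48 h with acetate. More were higher than lower at 64 and 88 h with acetate. All tested genes split the same way except at 88 h with acetate, where more of them were lower. Without acetate 23 were higher in low nitrogen and 28 lower at 48 h, against 29.1% and 29.9% of all genes. The 64 h cultures gave 18 higher and 28 lower (35.4% and 38.4% of all genes). The 88 h cultures gave 21 higher and 29 lower (37.6% and 39.9%). In media with acetate, 23 genes rose and 27 fell at 48 h (34.3% and 36% of all genes), 28 rose and 17 fell at 64 h (39% and 37%), and 23 rose and 20 fell at 88 h (36.6% and 40.8%). As shares of the 67 these were 34.3% and 41.8%, 26.9% and 41.8%, and 31.3% and 43.3% without acetate, and 34.3% and 40.3%, 41.8% and 25.4%, and 34.3% and 29.9% with acetate. The share called lower stood above that of all genes without acetate at 48 h (41.8% against 29.9%). It stood below it with acetate at 64 h (25.4% against 37%) and 88 h (29.9% against 40.8%), and elsewhere near it. Of the 55 intron-rich genes without an overlapping neighbour, 41.8% were higher and 32.7% lower without acetate at 48 h. At 64 h these shares were 30.9% and 40.0%, and at 88 h 38.2% each. Their medians without acetate were 0.0281, -0.137 and -0.103 in order of time. Median log2 fold changes of the 67 were -0.0647, -0.164 and -0.128 without acetate at the 3 times, and -0.102, 0.131 and 0.0907 with it. Among genes of over 4 kb the median with acetate at 48 h was 0.0081, against 0.269 in genes with fewer exons, and without acetate at 64 h it was -0.164, against -0.343. With library totals alone the splits without acetate were 12 higher and 31 lower, 6 and 47, and 5 and 48 in order of time, and 17 and 31 with acetate at 64 h.

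These medians were small, and single libraries moved several of them. The distance to the other genes without acetate was -0.136 at 64 h, and -0.0457 without replicate 2 of high nitrogen and -0.0258 without the libraries that stood apart. At 48 h it was -0.0593, and -0.129 without replicate 1 of high nitrogen, and -0.0898, -0.0912 and -0.106 without replicates 1, 2 and 3 of low nitrogen. At 88 h it was -0.101, and -0.163 without replicate 2 of low nitrogen. With acetate it was -0.092 at 48 h, and leaving out replicate 3 of low nitrogen gave -0.0586. At 64 h it was 0.114, and leaving out replicate 1 gave 0.0636 for low nitrogen's and 0.0507 for high nitrogen's. At 88 h it was 0.147, and 0.0678 without replicate 3 of low nitrogen. Leaving out libraries reversed the sign of none of these.

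Single members changed far more with nitrogen than the group did. The strongest was mRNA_5187, the shortest of the 67. At 88 h without acetate it had 156, 137 and 204 CPM in low nitrogen, against 5.25, 4.82 and 4.53 CPM in high nitrogen (log2 fold change 5.08 with SE 0.32, adjusted p = 8.9e-15). With acetate it had 104, 87.5 and 78.4 CPM in low nitrogen at 88 h, against 4.57, 3.77 and 4.39 CPM in high nitrogen (log2 fold change 4.42 with SE 0.31, adjusted p = 1.17e-13). At 48 h without acetate the levels overlapped, at 6.06, 6.48 and 5.91 CPM in low nitrogen, against 5.69, 6.04 and 8.87 CPM in high nitrogen (log2 fold change -0.15 with SE 0.3, adjusted p = 0.688). Higher in low nitrogen in all 6 comparisons were 3 genes (4.48%, against 7.49% of all genes), of which mRNA_4904 and mRNA_1689 had the largest minimum change. At 64 h without acetate mRNA_4904 (scaffold 3, 1266419 to 1270865, minus strand, 23 exons) had 35.3, 44.7 and 51.9 CPM in low nitrogen, against 2.78, 1.82 and 3.06 CPM in high nitrogen (log2 fold change 4.08 with SE 0.21, adjusted p = 3.05e-16). The low-nitrogen level of mRNA_1689 (scaffold 11, 897015 to 900119, minus strand, 20 exons) at 88 h with acetate was 26.5, 22.9 and 24.9 CPM, against 5.08, 4.44 and 4.07 CPM in high nitrogen (log2 fold change 2.46 with SE 0.16, adjusted p = 1.26e-14). No libraries of the compared groups overlapped for these 2 genes in the comparisons given.

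On the other side, 7 intron-rich genes (10.4%, against 7.11% of all genes) were lower in low nitrogen in all 6 comparisons. Among them, mRNA_3872 (scaffold 2, 794357 to 800045, plus strand, 25 exons) had 24.7, 29.5 and 24.8 CPM in low nitrogen at 88 h without acetate, against 70.8, 76.0 and 67.7 CPM in high nitrogen (log2 fold change -1.43 with SE 0.11, adjusted p = 8.07e-13). At the same point mRNA_3864 (scaffold 2, 771424 to 775679, minus strand, 20 exons) had 64.4, 73.5 and 71.1 CPM in low nitrogen, against 189, 251 and 223 CPM in high nitrogen (log2 fold change -1.66 with SE 0.11, adjusted p = 3.15e-14). Larger falls occurred at single points. With acetate at 88 h mRNA_1650 had 9.18, 11.5 and 13.5 CPM in low nitrogen, against 235, 194 and 184 CPM in high nitrogen (log2 fold change -4.17 with SE 0.22, adjusted p = 1.56e-16). With acetate at 48 h mRNA_6260 (scaffold 6, 377562 to 381779, minus strand, 23 exons) had 18.9, 20.2 and 21.2 CPM in low nitrogen, against 176, 164 and 179.5 CPM in high nitrogen (log2 fold change -3.10 with SE 0.19, adjusted p = 7.13e-15), and mRNA_3525 had a log2 fold change of -2.35 at 88 h. Without acetate the falls of mRNA_8217 and mRNA_2436 at 48 h were -2.22 and -2.44, that of mRNA_6664 at 64 h -1.71, and that of mRNA_6543 at 88 h -2.22 log2 units.

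Without acetate more intron-rich genes were lower than higher at 88 h, against 48 h, in both nitrogen media. In low nitrogen 15 were higher at 88 h and 38 lower (22.4% and 56.7%, against 36.2% and 37.4% of all genes), with a median log2 fold change of -0.408, against -0.00167 for the other genes. In high nitrogen 11 were higher and 40 lower (16.4% and 59.7%, against 32.8% and 32.6%), with medians of -0.379 and 0.00569. With acetate in low nitrogen the counts were even, 25 and 25 (37.3% each, against 38.9% and 35.5%), with medians of 0.0248 and 0.0425. With acetate in high nitrogen 15 were higher and 27 lower (22.4% and 40.3%, against 33.3% and 33.9%), with medians of -0.114 and -0.00663. Library totals alone gave 7 higher and 44 lower in low nitrogen without acetate, 13 and 33 in low nitrogen with acetate, 15 and 32 in high nitrogen without acetate, and 13 and 38 in high nitrogen with acetate. The 88 h libraries without acetate are also the reference of the acetate comparisons at 88 h. The fall over time without acetate and the rise with acetate at 88 h thus share libraries and are not independent results. Whether the fall itself differed between media with and without acetate was not tested as such.

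Library scores ran the same way. In low nitrogen without acetate the score averaged 0.00813 ± 0.0634 at 48 h, -0.0656 ± 0.0157 at 64 h and -0.371 ± 0.0368 at 88 h (SD, n = 3). In high nitrogen without acetate it averaged 0.0829 ± 0.0544, 0.0139 ± 0.0718 and -0.190 ± 0.0161. In both media all 3 libraries at 88 h lay below all those at 48 and 64 h. With acetate the score peaked at 64 h, at 0.218 ± 0.0649 in low and 0.177 ± 0.0621 in high nitrogen, against 0.0803 ± 0.0223 and 0.0529 ± 0.0610 at 48 h, and -0.00143 ± 0.0614 and -0.0840 ± 0.0413 at 88 h.

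Unlike the median acetate response at 64 h, the median fall over time without acetate differed between exon classes of one length. In low nitrogen the median log2 fold change among genes of over 4 kb was -0.555 with 20 or more exons, -0.485 with 15 to 19, -0.383 with 10 to 14, -0.204 with 6 to 9 and -0.152 with 2 to 5. In high nitrogen the medians were -0.459, -0.349, -0.0833, -0.0811 and -0.150 in the same order. Genes of 2 to 4 kb did not follow exon number to the end, as those with 15 to 19 exons fell furthest, by -0.541 in low and -0.410 in high nitrogen, against -0.293 and -0.265 with 20 or more. With acetate in high nitrogen the median of over 4 kb genes was -0.0841 with 20 or more exons and 0.373 in all genes with fewer. The 11 genes with 25 or more exons had medians of -0.676 in low and -0.644 in high nitrogen without acetate, where 0 rose and 9 fell in high nitrogen. Just inside the limit, with 20 or 21 exons, the medians were -0.299 in low and -0.313 in high nitrogen, and just outside it, with 18 or 19, -0.486 and -0.442. The 55 genes without an overlapping neighbour had -0.256 and -0.261. The part of exon number in this fall was not tested.

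Among the deepest falls over time were those of mRNA_8217, mRNA_1343 and mRNA_3237. In high nitrogen without acetate mRNA_8217 had 11.5, 12.3 and 9.15 CPM at 88 h, against 151, 123 and 151 CPM at 48 h (log2 fold change -3.68 with SE 0.19, adjusted p = 1.34e-15). In low nitrogen without acetate mRNA_1343 had 11.4, 12.7 and 10.4 CPM at 88 h, against 75.1, 82.9 and 86.0 CPM at 48 h (log2 fold change -2.81 with SE 0.22, adjusted p = 1.48e-12). Also there, mRNA_3237 (scaffold 17, 176488 to 184590, plus strand, 22 exons in 6177 bp) had 189, 242 and 189 CPM at 88 h, against 1086, 988 and 1072 CPM at 48 h (log2 fold change -2.34 with SE 0.16, adjusted p = 1.16e-13). In all 3 cases the groups were far apart. With acetate in low nitrogen mRNA_3175 (scaffold 17, 12287 to 17618, minus strand, 22 exons) had 108, 146 and 126 CPM at 88 h, against 427, 434 and 418 CPM at 48 h (log2 fold change -1.75 with SE 0.17, adjusted p = 3.58e-10), and mRNA_73 had a log2 fold change of -1.61. In high nitrogen mRNA_3175 took the opposite course with acetate (log2 fold change 0.93 with SE 0.17, adjusted p = 2.33e-05). With acetate in high nitrogen mRNA_3409 (scaffold 18, 20684 to 27093, minus strand, 20 exons) fell to 525, 460.5 and 517 CPM at 88 h, against 1027, 1140 and 1605 CPM at 48 h (log2 fold change -1.33 with SE 0.13, adjusted p = 6.4e-10).

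The fall of mRNA_2436 (scaffold 14, 121302 to 125250, plus strand, 24 exons) with acetate in high nitrogen was called with and without a library that stood apart, but its size rested on that library. It had 66.8, 51.5 and 48.7 CPM at 88 h, against 72.1, 94.1 and 519 CPM at 48 h, the last value being that of the library in question. Its log2 fold change of -2.04 was -0.577 (adjusted p = 0.0383) without that library and -0.586 (adjusted p = 0.0056) without all 4 that stood apart. Without acetate it had 46.7, 39.0 and 35.8 CPM at 88 h, against 235, 259.6 and 192 CPM at 48 h (log2 fold change -2.50 with SE 0.43, adjusted p = 1e-05), where no single library decided the fall. A gene on the opposite strand overlaps mRNA_2436.

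Rises over time without acetate were fewer than falls. In low nitrogen without acetate mRNA_5187 rose to the levels given above at 88 h (log2 fold change 4.75 with SE 0.31, adjusted p = 4.9e-14), followed by mRNA_1689 (log2 fold change 1.42 with SE 0.15, adjusted p = 1.04e-09). In the other 3 media mRNA_1650 rose most, with 82.4, 68.9 and 68.8 CPM at 88 h in high nitrogen without acetate, against 6.27, 10.5 and 7.37 CPM at 48 h (log2 fold change 3.19 with SE 0.21, adjusted p = 2.07e-13). Next to it with acetate was mRNA_996, with log2 fold changes of 2.23 in low and 1.16 in high nitrogen. In low nitrogen with acetate mRNA_996 had 3345, 3620 and 3369 CPM at 88 h, against 657, 875 and 665 CPM at 48 h. In high nitrogen without acetate mRNA_6260 came second (log2 fold change 1.54 with SE 0.17, adjusted p = 8.5e-09). Over all 4 media 10 of the 67 genes (14.9%, against 5.33% of all genes) were lower at 88 h and 3 (4.48%, against 5.41%) were higher.

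**Figure D4:**
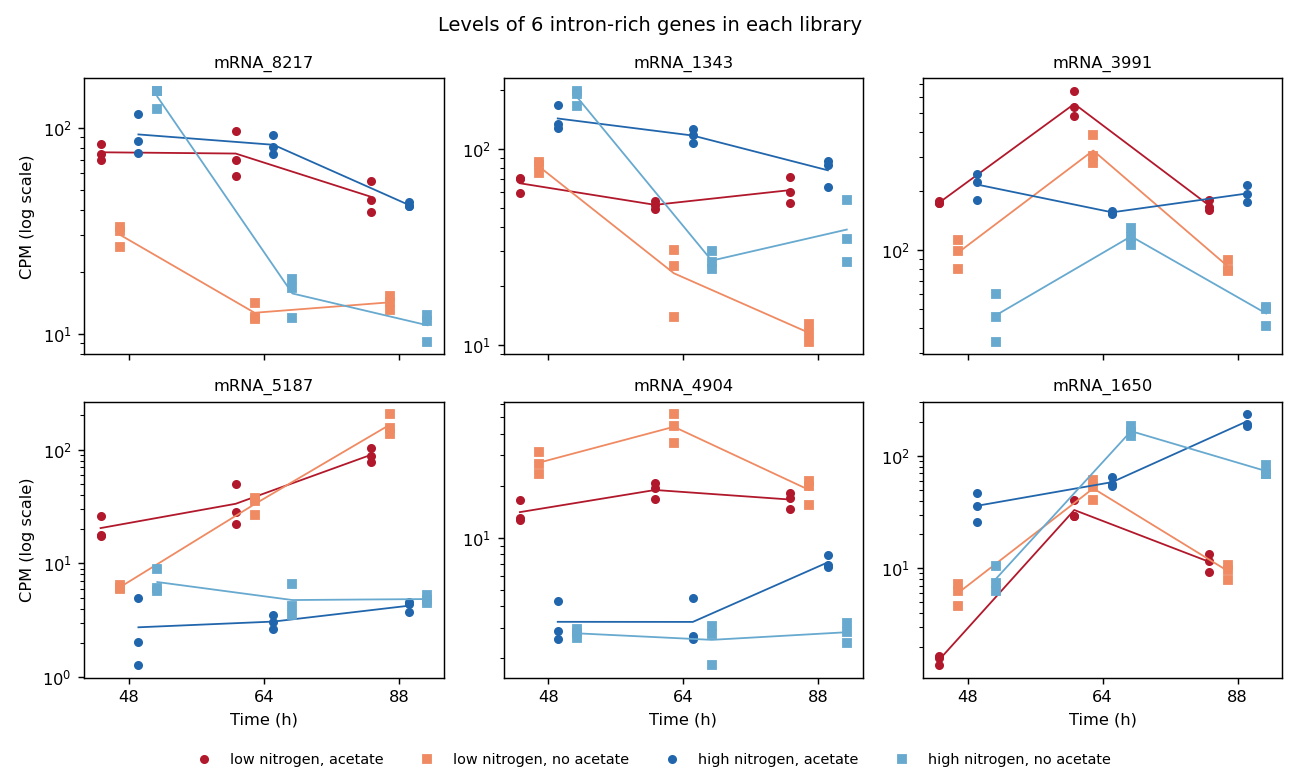
CPM of 6 intron-rich genes in each of 36 libraries by time on a log scale, with points for libraries and lines through group means. The plot shows low and high nitrogen apart in mRNA_4904, and in mRNA_5187 except at 48 h without acetate. It also shows acetate and no acetate apart in mRNA_8217 and mRNA_1343 at 64 and 88 h.

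Over all 12 groups, the 67 genes varied about as much as other genes. The SD of the 12 group means of log2 CPM had a median of 0.512 over the 67, against 0.556 over the others. Most variable were mRNA_1650 (SD 2.09) and mRNA_5187 (SD 1.99), and least variable mRNA_5608 (SD 0.14) and mRNA_6637 (SD 0.217). The 36 libraries held mRNA_5608 (scaffold 5, 494885 to 501857, minus strand, 20 exons) between 188 and 293 CPM. Steadiness did not mean absence of calls, as acetate raised mRNA_5608 at all 3 times in high nitrogen, by 0.29, 0.18 and 0.34 log2 units. Of the 67 genes 37 (55.2%, against 49.6% of all genes) were called in both directions over the 6 acetate comparisons, and 26 (38.8%, against 43.6%) over the 6 nitrogen comparisons.

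**Figure D5:**
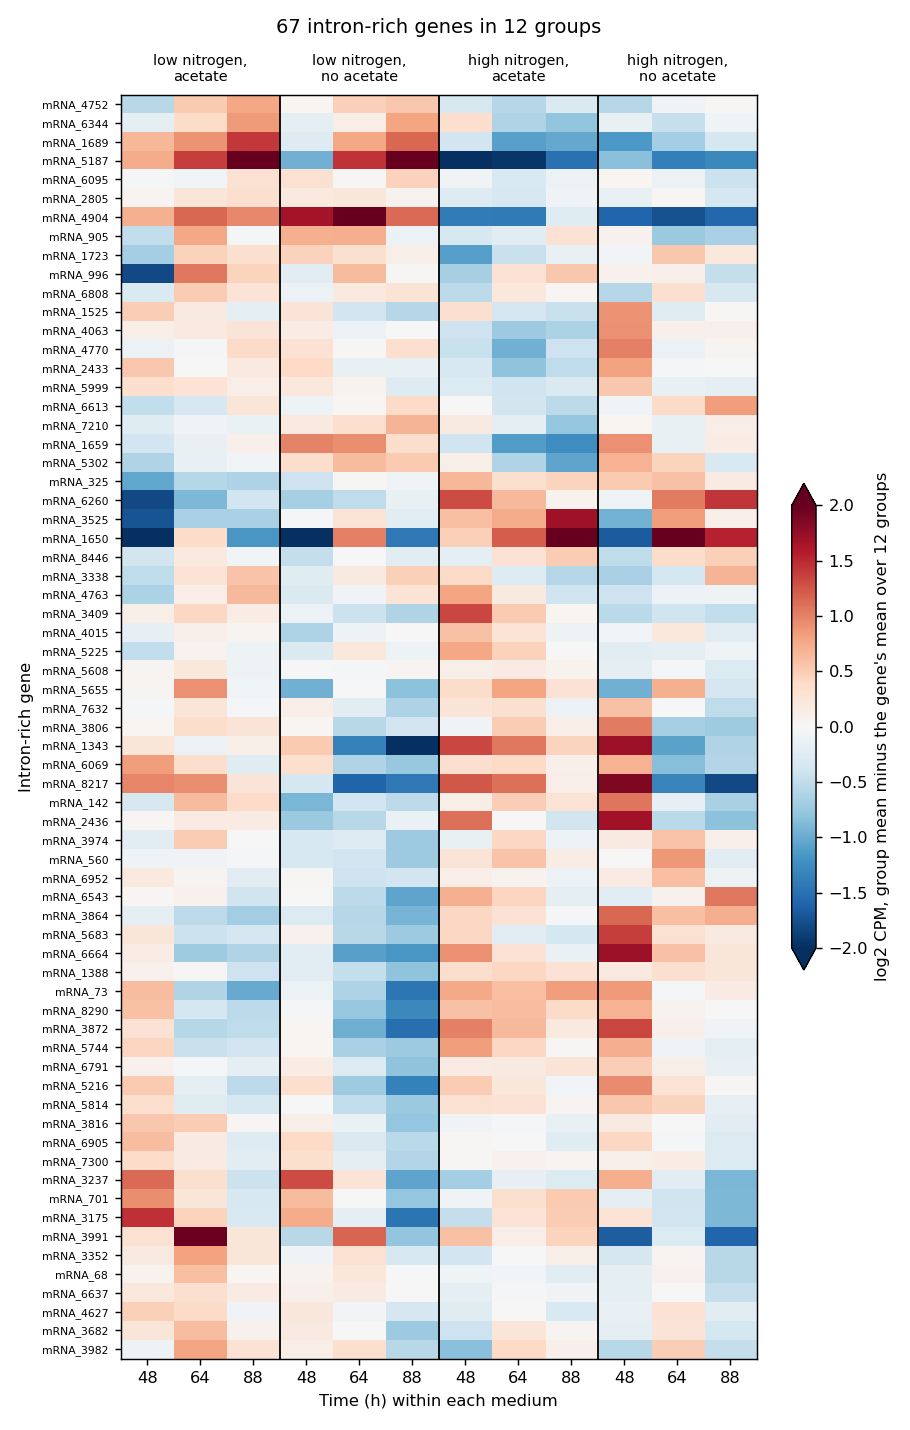
Group means of log2 CPM for the 67 intron-rich genes in 12 groups, each gene centred on its mean over the groups, with genes ordered by likeness of pattern. Blue marks a level below the gene's own mean over the groups. At 88 h against 48 h in low nitrogen without acetate, 38 of 67 genes were lower (56.7%, against 37.4% of all genes). In the same comparison 15 were higher (22.4%, against 36.2%). Single rows such as mRNA_5187 and mRNA_1650 span the widest range.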

How the data were processed

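Per the labels' protocols, messenger RNA libraries were made with a strand-specific kit, and the submitters' processing notes name Trimmomatic 0.39, STAR 2.7.10a and featureCounts (Subread 2.0.4). The deposited values are whole-number read counts per mRNA in 36 libraries. A label calls them CPM, but they are whole numbers with unequal library sums and were treated as raw counts. The strand setting of the counting is not given in the sources used here.

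Counts were matched to the deposited annotation by the number in the mRNA identifier. Genes were filtered with filterByExpr (176 of 8490 not tested), scaled by TMM and fitted with edgeR 4.0.16 in R 4.3.3, with 1 mean per group over all 36 libraries. Adjusted p-values are from the quasi-likelihood F test with Benjamini-Hochberg adjustment over 8314 genes within each of 19 comparisons, and a gene was called at an adjusted p below 0.05. The standard error was taken as the size of the log2 fold change divided by the square root of F. Tested on simulated data for acetate in low nitrogen at 48 h, the fit recovered most known changes. Those data were drawn from the fit's own means and spread as independent libraries. They cannot show how the fit does where libraries share a colony or flask. Log2 CPM used a prior count of 2, and RPKM a pseudocount of 0.1 on the log2 scale.

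Membership followed from the exon count alone, but the limit of 20 exons, the exon and length classes and the rule for named genes were set with earlier results of these data known. Genes named in the text are those with most exons, the 5 with highest mean RPKM, those with the 2 highest and 2 lowest log2 fold changes per comparison among called genes with a mean of 10 CPM or more in either group and no overlap of libraries (overlap was not asked of the interactions), up to 2 in each direction of those called the same way in all 6 acetate or all 6 nitrogen comparisons (the ones whose smallest change was largest), and the 2 most and 2 least variable. Alternatives were DESeq2 1.42.0, its size factors, library totals alone, no filter, thinned counts, a replicate block, only the groups compared, and leaving out libraries. Over 198 pairs of libraries with the same replicate number in different groups, the correlation of deviations ran between -0.366 and 0.351. The median was 0.00679, and 38 were over 0.1. Over 396 pairs with different numbers the median was -0.00141, and 65 were over 0.1. Pairs with the same number at the same time had a median of 0.0294. The check cannot tell whether a number stands for a colony, as the labels do not say how numbers were given.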

Additional observations from a re-analysis of the deposited data

Results flagged for a closer look

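Results flagged here are acetate effects that differed between low and high nitrogen by a test of the difference itself (effect in low minus effect in high nitrogen, log2 units, edgeR with Benjamini-Hochberg adjustment). No explanation was tested for any of them.

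At 48 h the difference was 3.052 for mRNA_5187 (adjusted p = 1.1e-06), 1.937 for mRNA_8217 (adjusted p = 6.55e-08), 1.215 for mRNA_3237 (adjusted p = 2.21e-05) and 1.041 for mRNA_4770 (adjusted p = 1.35e-07). The effect was lower in low nitrogen for mRNA_1650 at -4.146 (adjusted p = 3.25e-11), mRNA_3525 at -3.246 (adjusted p = 4.41e-14), mRNA_3991 at -1.365 (adjusted p = 5.02e-06) and mRNA_996 at -0.861 (adjusted p = 0.000907). Of these, mRNA_5187, mRNA_8217, mRNA_1650 and mRNA_3525 had effects of opposite sign in the 2 media, whereas mRNA_3991 rose and mRNA_996 fell in both.

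At 64 h the difference was 1.157 for mRNA_4063 (adjusted p = 4.55e-07), 1.152 for mRNA_1723 (adjusted p = 9.24e-05) and 0.884 for mRNA_1650 (adjusted p = 0.00622), and -1.589 for mRNA_4904 (adjusted p = 4.23e-05) and -0.954 for mRNA_1343 (adjusted p = 0.006). The last of these rose with acetate in both media, and further in high nitrogen.

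At 88 h it was 1.997 for mRNA_6543 (adjusted p = 9.42e-07), 1.405 for mRNA_1343 (adjusted p = 0.000116), 1.183 for mRNA_1659 (adjusted p = 1.19e-05) and 1.15 for mRNA_6260 (adjusted p = 0.000169). It was -2.005 for mRNA_3525 (adjusted p = 4.45e-10), -1.52 for mRNA_4904 (adjusted p = 2.73e-05) and -0.994 for mRNA_3991 (adjusted p = 0.000236). The difference for mRNA_1343 thus had opposite signs at 64 and 88 h.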

How the results depend on the processing

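The number of intron-rich genes called, both directions together, stayed within 1.5 times the reported count in all 284 alternatives over 19 comparisons. That total can hold while the split reverses. With library totals alone, acetate in high nitrogen at 88 h went from 34 higher and 18 lower to 12 and 35. Taken by direction, 11 of the 284 counts of genes higher and 10 of the 284 counts of genes lower moved beyond 1.5 times. Of 1136 alternative log2 fold changes of named genes, 1135 kept their direction and call, 1 (mRNA_5187 with acetate at 88 h in low nitrogen) lost its call and 0 reversed. Of 284 alternative distances between the medians of intron-rich and other genes, 267 moved by less than the spread between replicates. The 284 include alternatives that change only the scaling, which shift both medians nearly alike and so could hardly move the distance. Without the libraries that stood apart the distance was -0.0258 for nitrogen without acetate at 64 h, -0.302 for 88 against 48 h in high nitrogen without acetate, and 0.193 for the interaction at 48 h, against reported values of -0.136, -0.385 and 0.109.

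Leaving out each library in turn gave distances of 0.0462 to 0.122 for acetate in low nitrogen at 48 h and 0.24 to 0.297 at 64 h. For nitrogen without acetate they were -0.129 to -0.0701 at 48 h, -0.176 to -0.0457 at 64 h and -0.163 to -0.0805 at 88 h, and with acetate 0.0507 to 0.139 at 64 h and 0.0678 to 0.157 at 88 h. Over time without acetate they were -0.48 to -0.369 in low nitrogen and -0.429 to -0.301 in high nitrogen, and for the interaction 0.0766 to 0.192 at 48 h and 0.191 to 0.277 at 64 h. Acetate in high nitrogen at 64 h (0.0247 as reported, -0.00548 to 0.0685) changed sign without replicate 3 without acetate, and time in low nitrogen with acetate (-0.0177 as reported, -0.062 to 0.00948) without replicate 1 at 88 h.

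With the replicate number as a block, 37, 41 and 44 intron-rich genes were called for acetate in low nitrogen and 43, 38 and 51 in high nitrogen in order of time, and no count moved beyond 1.5 times. The level per length, -0.367 on the log2 scale against other genes, was -0.455 per coding length, -0.0234 for genes with 15 or more exons and -0.516 for those with 25 or more. The causes were not tested.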
